A study of Mus musculus with 4 samples.

Results

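The 31 genes described here carry out fatty acid oxidation and the making and use of ketone bodies, together with 2 regulators of that pathway. They were taken by symbol from the 27998 genes listed in every count matrix, and each symbol was found once. The nuclei came from kidneys of C57BL/6 mice at post natal week 22. Untreated kidneys (2 libraries) were compared with kidneys (2 libraries) treated with losartan, which blocks the angiotensin II type 1 receptor. The labels used here give no dose, route, duration or sex, and no label says that the 2 libraries of a group came from separate animals, so p-values measure only the spread between these libraries, which may be technical. Transcripts were counted as unique molecular identifiers (UMIs) in single nuclei, so the values are nuclear RNA.

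Fatty acids enter the cell through carriers such as Cd36, are joined to coenzyme A, and cross into mitochondria on carnitine. There, a cycle of dehydrogenation, hydration, a second dehydrogenation and thiolysis shortens the chain, and electron transfer flavoprotein carries the electrons on. Peroxisomes shorten very long chains first. The proximal tubule of the kidney relies heavily on this pathway for energy, and the nuclear receptor Ppara and its coactivator Ppargc1a are known regulators of it.

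After filtering, 36003 nuclei of 39654 barcodes were kept, with 36522085 to 50543681 UMIs per library. Median depths were 3363 to 4230.5 UMIs per nucleus, and 149 barcodes occurred in more than 1 library. Nuclei were grouped by marker genes that exclude the 31 genes. The proximal tubule was represented by 2687 and 1973 nuclei in the untreated libraries and by 3939 and 3390 in the losartan libraries. These numbers leave out clusters with high doublet scores, which held more proximal tubule nuclei in losartan libraries. S1, S2 and S3 are the successive segments of the proximal tubule. Injured proximal tubule nuclei, named from markers of tubule damage, numbered 384, 449, 22 and 135, so values of losartan library 1 in that class rest on 22 nuclei. Class names stand for nuclei that resemble a cell type by its markers. Levels are UMIs of a gene scaled by edgeR to the depth of its class and library (CPM), and they are compared within a gene, never between genes. No source used here says whether counting used strand, and 10 of the genes overlap a counted gene on the opposite strand in GENCODE M21 (Acaa1a, Acaa1b, Acadvl, Bdh1, Crat, Eci2, Etfdh, Hadha, Pex11a and Slc27a2), so their values are uncertain to that extent. Etfb overlaps another gene, Gm45233, on the same strand, so its values are uncertain as well. Acaa1a and Acaa1b are near-identical copies whose reads may be split between them.

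The proximal tubule held the highest mean level of 20 of the 31 genes among 17 classes of nuclei with at least 20 nuclei in every library: 3 peaked in S1, 7 in S2 and 10 in S3. Of the others, 4 peaked in the thick ascending limb, 3 in mural and mesangial nuclei, and 1 each in the distal convoluted tubule, fibroblasts, lymphocytes and urothelium. Adipocytes, with 0, 65, 1 and 47 nuclei in untreated libraries 1 and 2 and losartan libraries 1 and 2, were left out of this order. Their summed CPM of the 31 genes, without edgeR factors, was 11999 in untreated library 2 and 14963 in losartan library 2. The proximal tubule summed to 6224 and 7077 in the same libraries, so the peaks hold only among the 17 classes. The highest class stood clear of the next in all 4 libraries for 9 genes: Cd36, Slc27a2, Crot, Acadm and Bdh1 in S3, Acaa1b, Hsd17b4 and Pex11a in S2, and Ppargc1a in the thick ascending limb. Neighbours in the order overlapped for the other 22. Comparisons of classes are described without a test because the classes come from clustering of the same nuclei.

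**Figure D1:**
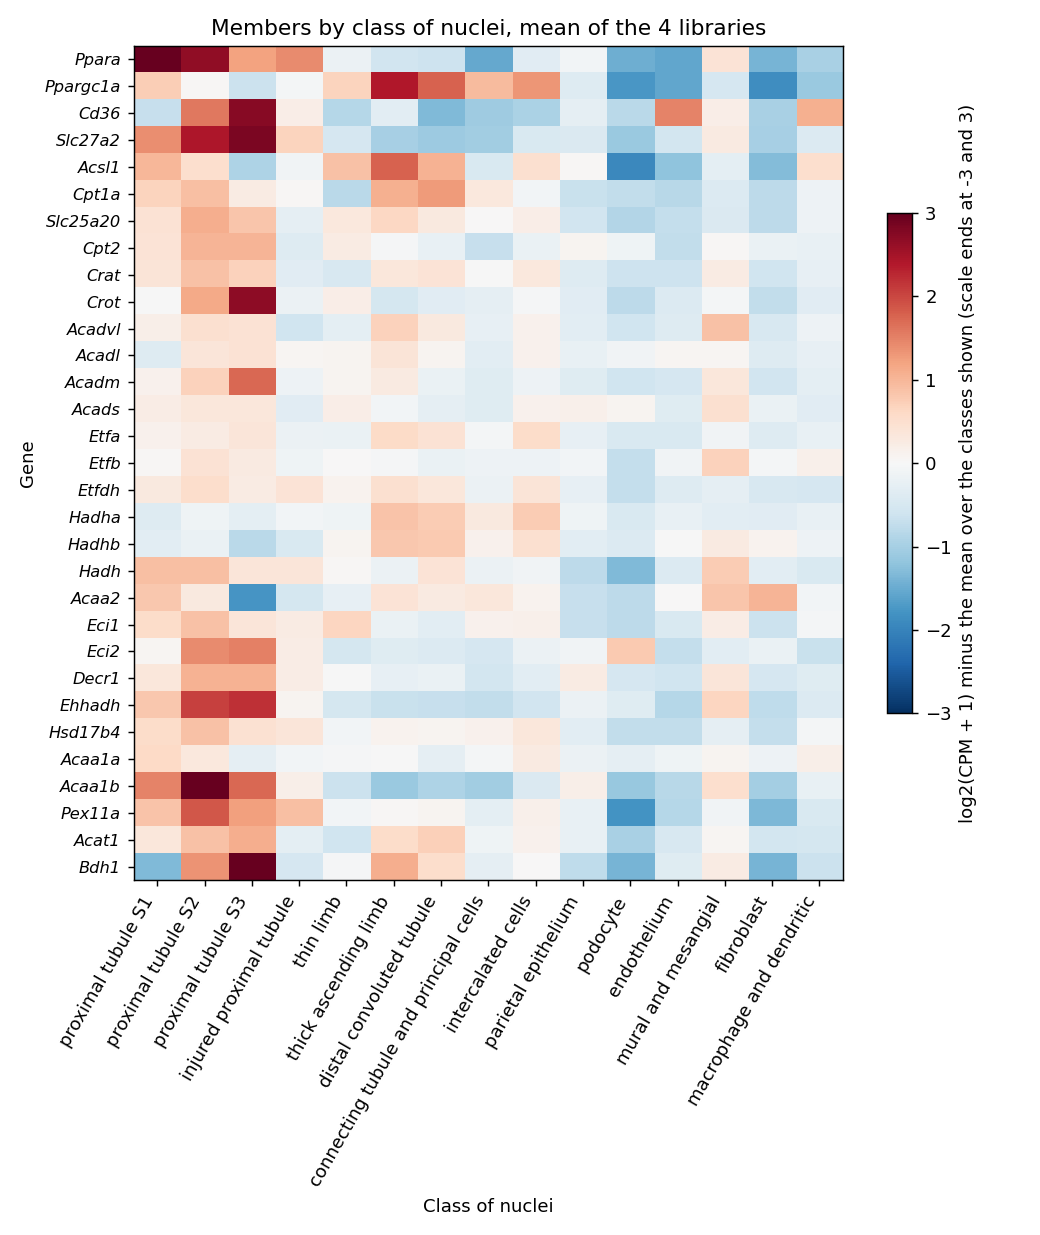
Heat map of the 31 genes (rows) in 15 classes of nuclei (columns). Colour is log2(CPM + 1), averaged over the 4 libraries, minus the gene's mean over these classes. Ppara is highest in S1 and S2, Bdh1, Cd36, Slc27a2 and Crot in S3, and Ppargc1a in the thick ascending limb.

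Along the proximal tubule, 16 of the 31 genes were higher in S3 than in S1 in all 4 libraries and 8 were lower, against 26.8% and 28.1% of the 11796 genes compared. Of the regulators, Ppara stood at 1648, 1455, 1390 and 1655 CPM in S1 (untreated libraries 1 and 2, then losartan libraries 1 and 2, the order used throughout) and at 559, 427, 343 and 441 CPM in S3. Every S1 value of Ppara lay above every S3 value. Ppargc1a was also lower in S3, at 472, 390, 461 and 494 CPM in S1 and 193, 201, 124 and 172 CPM in S3.

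Among genes of uptake and activation, Cd36, a fatty acid carrier at chr5:17781690-17888801 (GRCm38), showed the opposite order. Its level was 37.5, 38.2, 31.6 and 48.3 CPM in S1, 157, 111, 304 and 194 CPM in S2, and 373, 361, 513 and 473 CPM in S3. The segments did not overlap. Cd36 was also present in endothelium, at 194, 177, 174 and 177 CPM. Slc27a2, a very long chain acyl-CoA synthetase and transporter, was at 1110 to 1298 CPM in S1 and 2915 to 3527 CPM in S3. Acsl1, which activates long chain fatty acids, ran the other way, from 281, 193, 239 and 252 CPM in S1 to 119, 44.8, 29.3 and 57.4 CPM in S3.

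The carnitine shuttle was mixed. Crot, the peroxisomal carnitine octanoyltransferase, was at 86.4, 75.6, 96.9 and 109 CPM in S1 and 464, 405, 867 and 665 CPM in S3. Cpt2, Slc25a20 and Crat were also higher in S3 than in S1 in all 4 libraries, by mean log2 ratios of 0.65, 0.42 and 0.30, whereas Cpt1a, the entry step of the shuttle, was lower by 0.43 (log2 ratio -0.43). Among the acyl-CoA dehydrogenases, Acadm, which acts on medium chains, was at 111, 117, 110 and 106 CPM in S1 and 255, 251, 481 and 344 CPM in S3. Acadl and Acadvl were higher in S3 in all 4 libraries (mean log2 ratios 0.83 and 0.24), and Acads, for short chains, was not consistent (0.14, higher in 3 of 4).

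Within the mitochondrial cycle and electron transfer, Acaa2, a thiolase, had one of the largest contrasts. It was at 65.6, 57.6, 65.7 and 80.1 CPM in S1 and 15.8, 9.36, 8.58 and 7.79 CPM in S3. Among the segments, this mitochondrial thiolase was lowest where Crot, Acadm and Cd36 were highest. Hadh was lower in S3 in all 4 libraries (mean log2 ratio -0.54), and Etfa and Etfb were higher (0.25 and 0.27). Hadha, Hadhb, Etfdh and Eci1 did not keep 1 direction across the libraries. Eci2 and Decr1, auxiliary enzymes for unsaturated chains, were higher in S3 (1.46 and 0.70).

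Of the peroxisomal genes, Acaa1b, a thiolase, peaked in S2 at 700, 638, 418 and 487 CPM, against 122, 248, 113 and 148 CPM in S1 and 195, 226, 149 and 175 CPM in S3. Pex11a, which takes part in peroxisome division, also peaked in S2 (63.4, 75.6, 58.7 and 73.6 CPM), as did Hsd17b4. Acaa1a was lower in S3 than in S1 (mean log2 ratio -0.88), and Ehhadh, the bifunctional enzyme, was higher (1.21).

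The ketone gene Bdh1, which interconverts acetoacetate and 3-hydroxybutyrate, had the steepest gradient. It was at 3.15, 3.32, 3.95 and 5.85 CPM in S1, 23.3, 16.6, 56.8 and 29.1 CPM in S2, and 134, 127, 164 and 151 CPM in S3, a mean log2 ratio of 4.86 between S3 and S1. Acat1, the mitochondrial acetoacetyl-CoA thiolase, was 0.72 higher in S3 on the same scale.

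**Figure D2:**
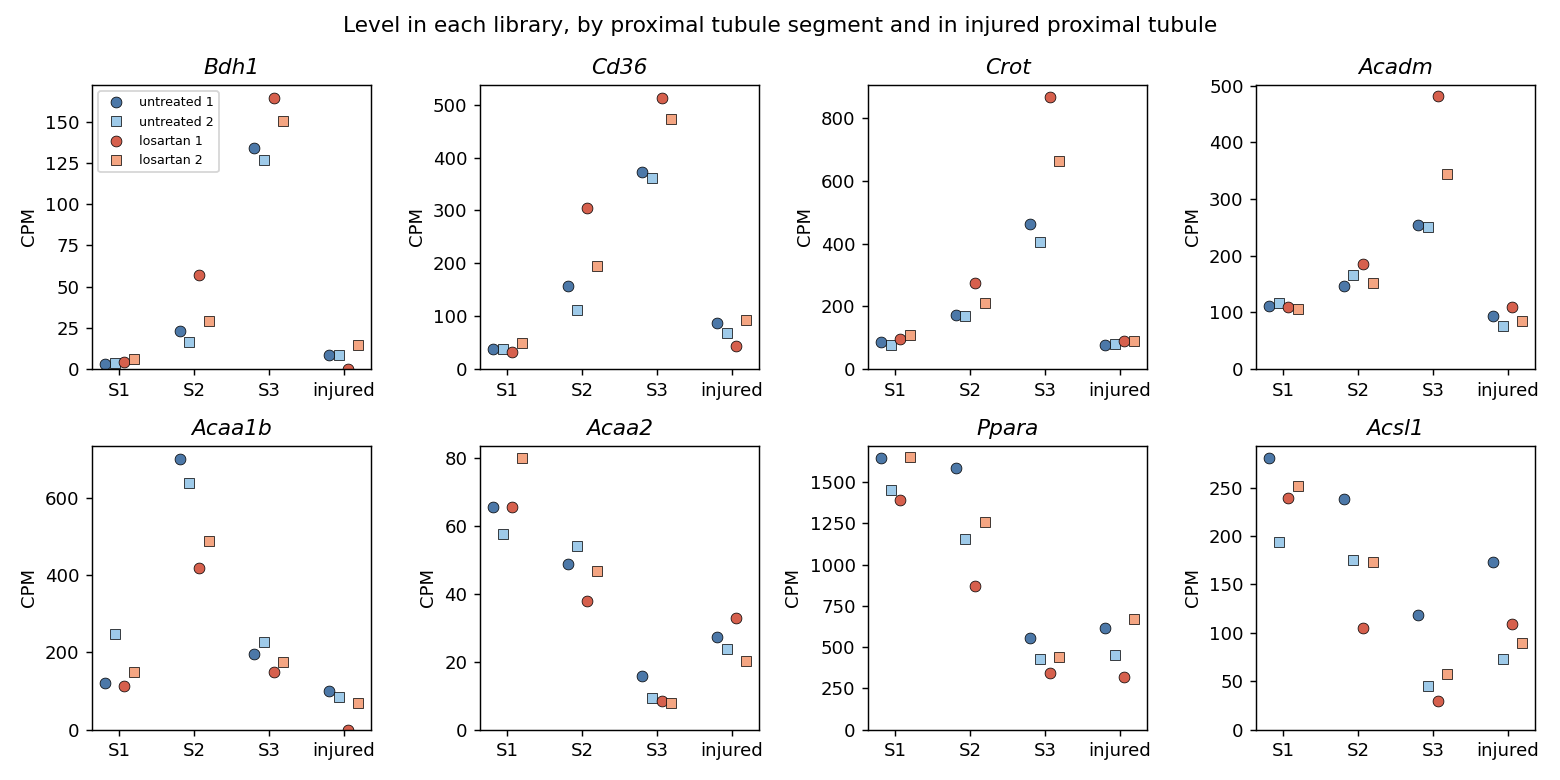
Level (CPM, linear axis from 0) of 8 genes in each library, by proximal tubule segment and in injured proximal tubule; blue marks untreated and red losartan libraries. Bdh1, Cd36, Crot and Acadm climb toward S3, Acaa1b peaks in S2, and Acaa2, Ppara and Acsl1 are lowest in S3 among the segments.

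Injured proximal tubule nuclei had less of most of the 31 genes than the proximal tubule as a whole. In 24 of 31 genes the injured class was lower in all 4 libraries, and in 0 of 31 was it higher in all 4, against 18.2% and 23.9% of the 13642 genes compared. The median log2 ratio was -0.81 for the 31 genes and -0.01 for all genes. Without losartan library 1, with its 22 injured nuclei, 25 of 31 were lower in the other 3 libraries, against 22.7% of all genes. Slc27a2 was at 801, 660, 625 and 795 CPM in injured nuclei against 2129, 1908, 2575 and 2316 CPM in the proximal tubule, and Crot at 76.8, 78.1, 87.7 and 88.3 CPM against 232, 185, 322 and 279 CPM. Hadha, Hadhb, Etfdh, Acadl, Ppargc1a, Acads and Hadh did not hold 1 direction. Marker genes of the proximal tubule stood in the injured class at a median of 37.0% of their proximal tubule level, while the 31 genes stood at a median of 60.1%. The part of a general loss of proximal tubule transcripts in these ratios was not tested.

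**Figure D3:**
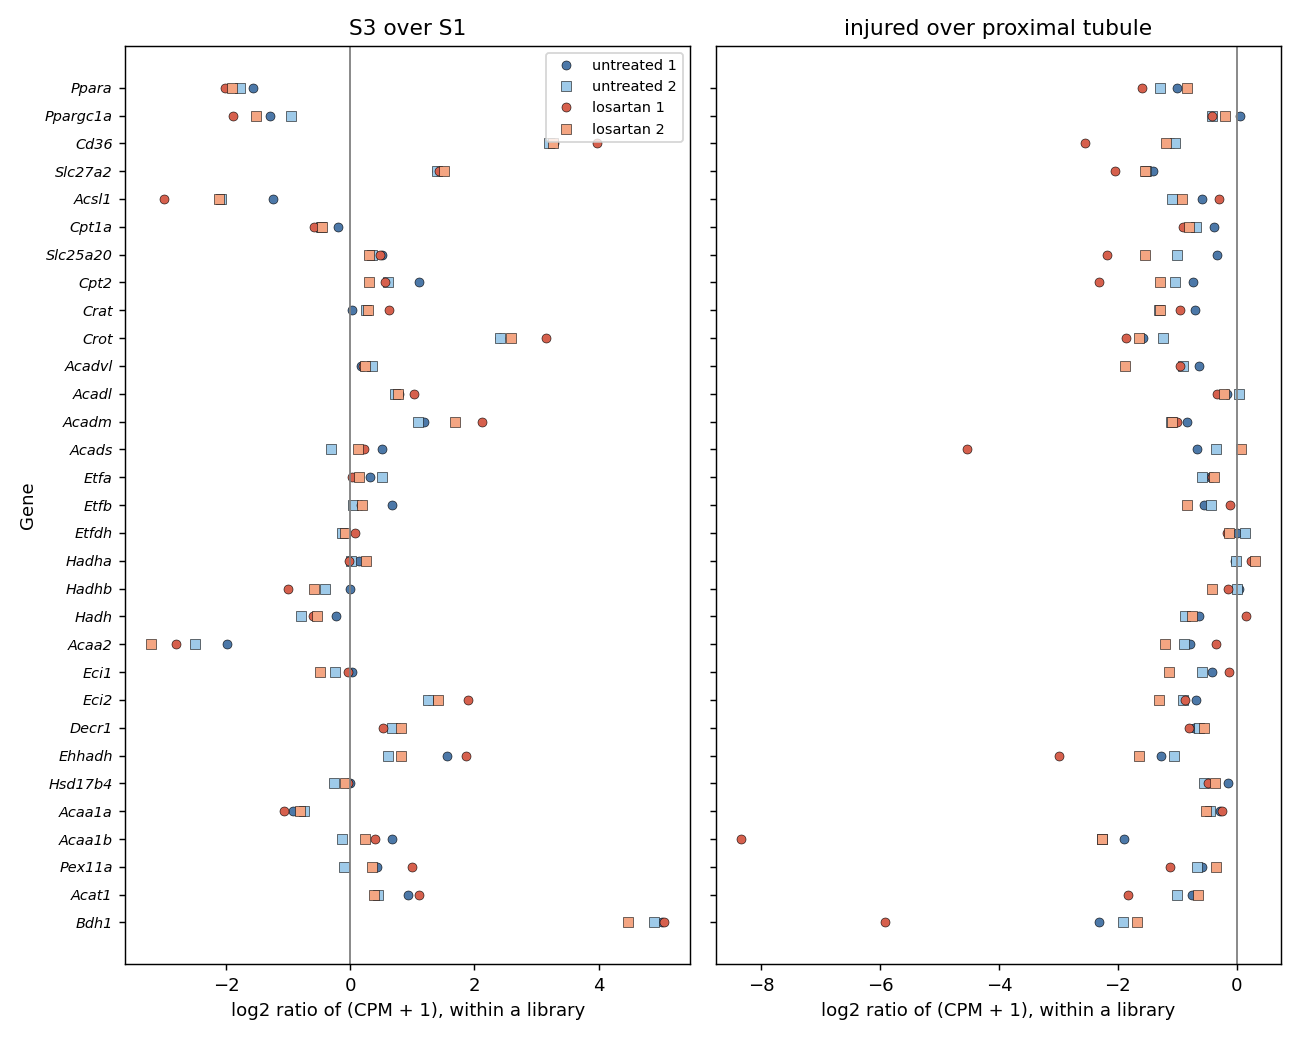
Log2 ratio of (CPM + 1) within each library for the 31 genes (rows), S3 over S1 on the left and injured over all proximal tubule on the right; points are the 4 libraries. Bdh1, Cd36 and Crot lie far right in the first panel, and nearly all points lie left of 0 in the second, where the far-left points of losartan library 1 rest on few UMIs.

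Outside the proximal tubule, 4 genes peaked in the thick ascending limb, the segment that dilutes urine. Ppargc1a was at 1388, 1283, 1402 and 1623 CPM there, 852, 855, 884 and 1082 CPM in nuclei of the distal convoluted tubule and 702, 627, 646 and 720 CPM in intercalated cells, against 301, 295, 293 and 331 CPM in the proximal tubule. The 3 distal classes all lay above it. Acsl1 was at 453, 275, 433 and 498 CPM in the thick ascending limb, and Hadha, of the trifunctional protein, at 127, 131, 182 and 177 CPM against 71.0, 78.8, 73.9 and 66.6 CPM in the proximal tubule. Cpt1a was highest in the distal convoluted tubule (356, 327, 413 and 352 CPM). In the thick ascending limb, proximal tubule marker genes stood at a median of 9.53% of their proximal tubule level, and the 31 genes at 72.7%.

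Promoters are shown only from genes with the match described below. That of Cd36 is shown because the gene's levels did not overlap between S1, S2 and S3, which was also true of other genes such as Bdh1. That of Slc25a20 is shown because this gene had the smallest unadjusted p of the 31 genes in the thick ascending limb. Both windows come from RefSeq (GRCm38.p6) and run 250 bases before to 50 after a start site, 5′ to 3′ on the gene's strand. Capitals mark a match, with at most 2 mismatches on either strand, to AGGTCANAGGTCA, the repeat bound by Ppara with its partner receptor. Of the 31 genes, 26 had a promoter entry, and Crat, Acaa2, Decr1, Hsd17b4 and Acat1 had none. Such a match occurred in the promoters of 3 of the 26 (Cd36, Etfa and Slc25a20) and of 4.40% of all 27025 genes. A match is a description and does not show binding.
Cd36, chr5:17835847-17836146, minus strand: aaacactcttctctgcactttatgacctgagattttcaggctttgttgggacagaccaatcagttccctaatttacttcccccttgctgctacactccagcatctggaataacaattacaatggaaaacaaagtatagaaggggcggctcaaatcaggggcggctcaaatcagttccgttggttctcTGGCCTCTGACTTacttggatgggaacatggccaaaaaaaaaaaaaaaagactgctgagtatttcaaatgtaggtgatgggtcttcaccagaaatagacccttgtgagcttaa
Slc25a20, chr9:108661886-108662185, plus strand: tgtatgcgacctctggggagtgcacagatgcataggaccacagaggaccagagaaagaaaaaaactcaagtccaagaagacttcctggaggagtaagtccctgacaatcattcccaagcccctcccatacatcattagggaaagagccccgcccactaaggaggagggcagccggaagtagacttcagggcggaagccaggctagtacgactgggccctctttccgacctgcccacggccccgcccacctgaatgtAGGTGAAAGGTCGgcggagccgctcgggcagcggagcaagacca
The match lay 63 bases before the start in Cd36 (position -63) and began 6 bases after it in Slc25a20.

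With losartan, all 31 genes had higher whole-kidney levels than in untreated kidneys, but none was called by edgeR's quasi-likelihood test (0 of 31 genes at Benjamini-Hochberg adjusted p under 0.05; background 0% of 18410 genes). At an unadjusted p under 0.05, 21 of 31 passed, against 21.9% of all genes, and in 28 of 31 both losartan libraries lay above both untreated ones, against 27.8%. DESeq2 called 9 of 31, against a background of 8.91% of genes: Slc27a2, Cpt2, Crot, Cd36, Pex11a, Acat1, Slc25a20, Eci2 and Ehhadh. Slc25a20, the carnitine carrier of the mitochondrial membrane, was at 56.2 and 54.5 CPM in untreated and 92.6 and 81.7 CPM in losartan libraries (log2 change 0.65 ± 0.10 SE; edgeR adjusted p = 0.11). Its groups did not overlap. Cd36 was at 108 and 84.9 against 189 and 149 CPM (0.81 ± 0.18; adjusted p = 0.126).

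The proximal tubule's share moved with these values. It gave 34.7% and 28.3% of whole-kidney UMIs in untreated and 41.9% and 37.1% in losartan libraries. These shares leave out proximal tubule clusters with high doublet scores, whose UMIs stay in the whole-kidney sums. With those clusters kept, the proximal tubule held 15205918 and 14853126 UMIs in untreated and 34212484 and 28596627 in losartan libraries. Without them it held 12661048 and 13192684 against 21186790 and 18664541, so the printed shares understate the rise. In bulk sums, more nuclei of a type and more RNA per nucleus cannot be told apart, so the same genes were compared within the proximal tubule. There the median log2 change of the 31 genes was 0.11, against 0.39 in the whole kidney and -0.01 for all genes tested. The nuclei of the 2 groups were spread differently over the 5 clusters of this class: 1 cluster held 973 and 978 untreated against 42 and 266 losartan nuclei, another 105 and 16 against 1564 and 638, and another 189 and 67 against 767 and 798. S2 gave 10.2% and 9.25% of whole-kidney UMIs in untreated and 22.5% and 19.0% in losartan libraries, and S3 gave 9.60% and 6.32% against 6.95% and 7.83%. Change in the mix of segments and change within a nucleus cannot be told apart in the proximal tubule sums. None was called by edgeR (0 of 31; background 0% of 15034 genes) or by DESeq2 (0 of 31; background 2%), 6 passed an unadjusted p of 0.05 (12.3% of all genes did), and in 13 genes the losartan libraries lay above and in 1 below the untreated ones (21.4% and 23.5% of all genes). Without losartan library 2, edgeR called 1 of 31, Acat1, and 0.969% of all genes.

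Within the proximal tubule, the members with the smallest p sat in different roles. Crot was at 232 and 185 CPM in untreated and 322 and 279 CPM in losartan libraries (log2 change 0.53 ± 0.15 SE, edgeR adjusted p = 0.272). Acat1 was at 174 and 160 against 315 and 205 CPM (0.64 ± 0.21, adjusted p = 0.325), with losartan library 1 well above the rest; the log2 change was 0.30 without that library. Acaa1b went the other way, at 371 and 405 against 321 and 329 CPM (-0.26 ± 0.10, adjusted p = 0.395). Cd36, Cpt2 and Eci2 had log2 changes of 0.55, 0.28 and 0.25. The regulators did not differ beyond the spread between libraries, Ppara at 1243 and 1112 against 965 and 1204 CPM and Ppargc1a at 301 and 295 against 293 and 331 CPM. Ehhadh was at 185 and 126 against 353 and 169 CPM, and its log2 change of 0.75 was 0.12 without losartan library 1.

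The genes also varied between clusters of proximal tubule nuclei within a library, given here without a test because the clusters were drawn from the same counts. In this paragraph CPM is without edgeR factors. Among clusters of at least 100 nuclei, Acaa1b spanned 91.4 to 811 CPM in untreated library 1 and 73.8 to 740 CPM in losartan library 1. Ehhadh spanned 61.6 to 315 and 71.9 to 184 CPM in the untreated libraries, 119 to 654 CPM in losartan library 1 and 91.3 to 241 CPM in losartan library 2. Its highest cluster, S3 nuclei of losartan library 1 (357 nuclei), held Acat1 at 460 and Acaa1b at 89.9 CPM. The other S3 cluster of that library (269 nuclei) held Ehhadh at 212, Acat1 at 243 and Acaa1b at 221 CPM. The 3 S2 clusters of losartan library 1 held Ehhadh at 474, 299 and 327 CPM, so its high level there was not limited to S3.

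By segment, edgeR called 0 of 31 genes in S1 (background 0%), 0 of 31 in S2 (background 0%) and 0 of 31 in S3 (background 0.0332% of 12052 genes). At an unadjusted p under 0.05, 5, 6 and 4 of 31 passed in S1, S2 and S3, against 9.73%, 11.4% and 7.7% of all genes. Leaving out a library gave 1 call in S1 (Acaa1b, without untreated library 1), 3 in S2 (Acat1, Ehhadh and Bdh1, without losartan library 2) and 1 in S3 (Acsl1, without untreated library 2), where 1.23%, 1.09% and 1.67% of all genes were called. In S3, Crot was at 464 and 405 against 867 and 665 CPM (0.82 ± 0.17, edgeR adjusted p = 0.243) and Acadm at 255 and 251 against 481 and 344 CPM (0.71 ± 0.18, adjusted p = 0.372); neither gene's groups overlapped. DESeq2 called Crot in S3 (adjusted p = 0.038, background 0.738%) and 0 of 31 in S1 and S2. In S2, Bdh1 was at 23.3 and 16.6 against 56.8 and 29.1 CPM (1.12 ± 0.35, adjusted p = 0.334; 0.55 without losartan library 1) and Acaa1b at 700 and 638 against 418 and 487 CPM (-0.56 ± 0.14, adjusted p = 0.275). Proximal tubule clusters that could not be given a segment by their markers held 498 and 19 nuclei in untreated library 1, 348 in untreated library 2 and 260 in losartan library 1, and losartan library 2 had no such cluster. The part of this unequal split in the S2 values was not tested. The difference between the losartan effects in S3 and S1 was not called for any of the 31 genes (edgeR; background 0.0623% of 12838 genes). At an unadjusted p under 0.05, 6 of 31 passed (7.62% of all genes), and Acadm had the smallest p, with a difference of 0.77 ± 0.19 (adjusted p = 0.299). In injured nuclei edgeR and DESeq2 called 0 of 31 genes (backgrounds 0.0267% and 0.0356%). There, 0 of 31 passed an unadjusted p of 0.05 in edgeR (4.59% of all genes), and the median log2 change was -0.03.

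**Figure D4:**
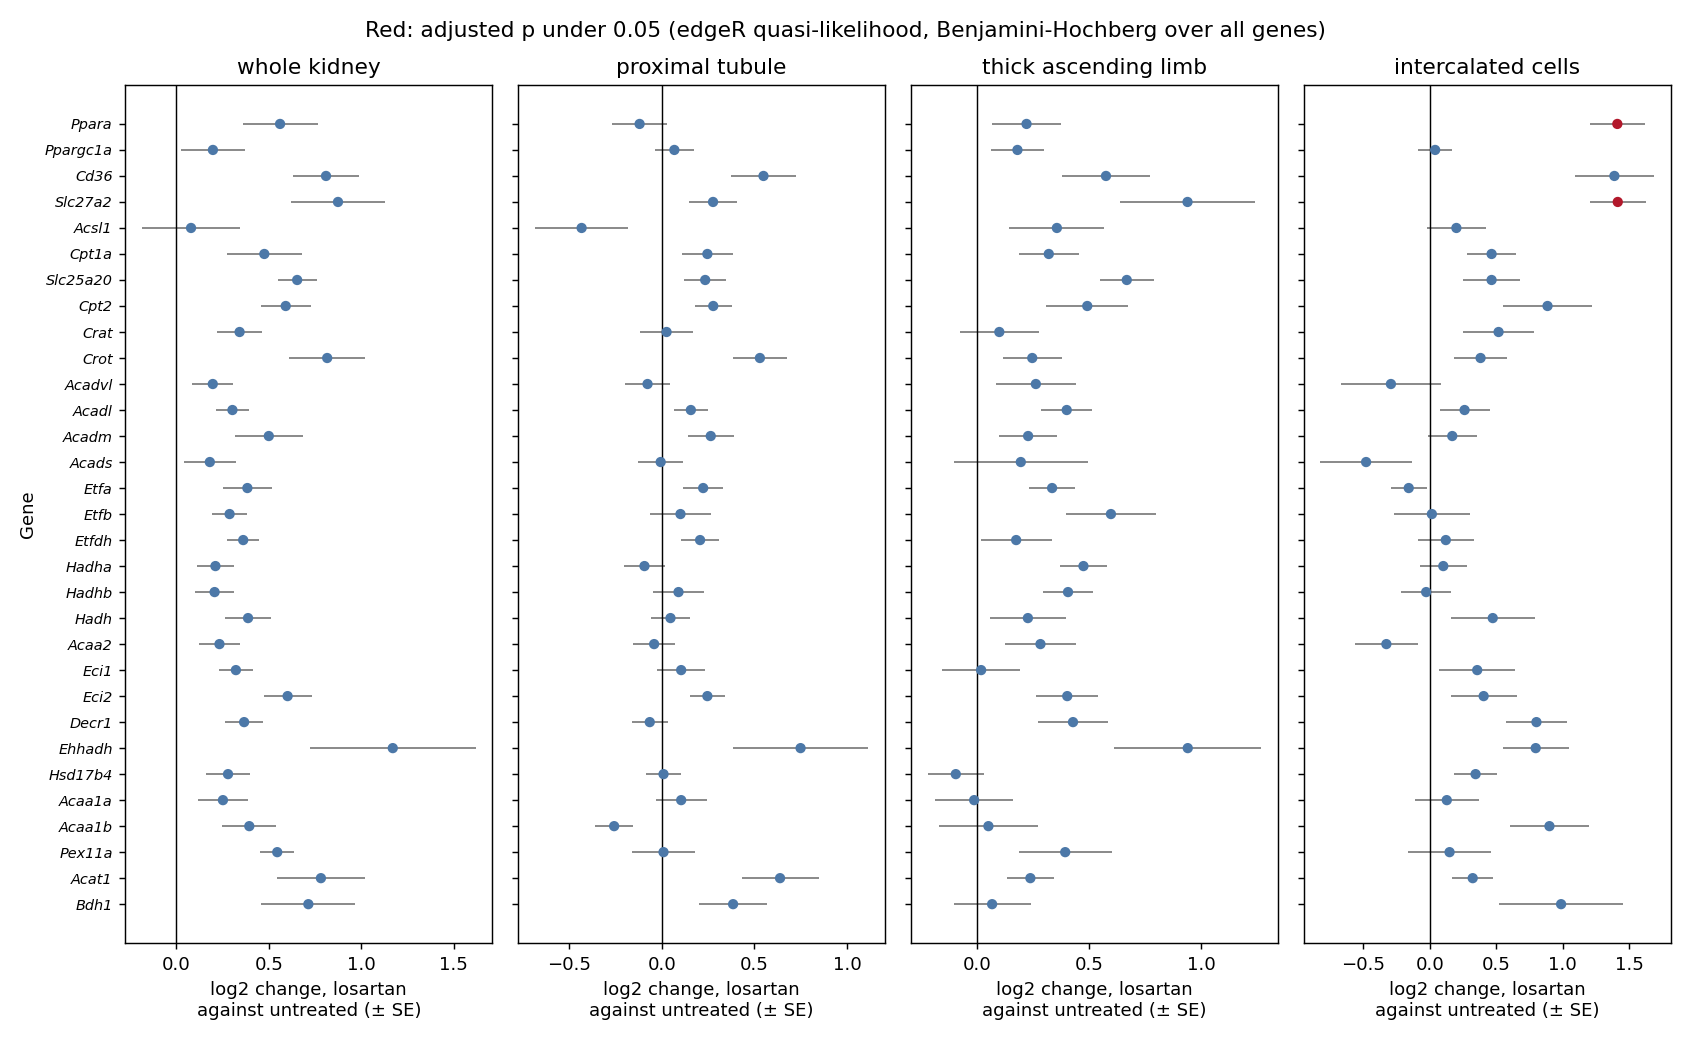
Log2 change, losartan against untreated, with its standard error for the 31 genes in 4 sums of nuclei; red marks adjusted p under 0.05. All points lie above 0 in the whole kidney, the proximal tubule points straddle 0, and only Ppara and Slc27a2 in intercalated cells are red.

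In the distal nephron, losartan libraries read higher for 29 of 31 genes in nuclei of the thick ascending limb, for 29 in those of the distal convoluted tubule and for 26 in connecting tubule and principal cells. None of the 31 was called in these classes by edgeR (backgrounds 0.333%, 0.239% and 0%) or DESeq2 (0.879%, 0.635% and 0.164%). At an unadjusted p under 0.05, 13, 12 and 3 of 31 passed in the same order, against 10.2%, 9.61% and 4.72% of all genes. In both the thick ascending limb and the distal convoluted tubule, 22 of 31 genes had both losartan libraries above both untreated ones, against 18.5% and 20.1% of all genes. Without untreated library 1, edgeR called 8, 9 and 1 of 31 in the 3 classes, against 6.80%, 7.06% and 1.32% of all genes. Without untreated library 2 it called 4 in each of the first 2 classes, against 3.99% and 3.57%. Slc25a20 in the thick ascending limb was at 57.3 and 59.9 against 93.0 and 93.2 CPM (0.67 ± 0.12, adjusted p = 0.0833), and Hadha in the distal convoluted tubule at 112 and 114 against 189 and 157 CPM (0.61 ± 0.12, adjusted p = 0.116). The difference in effect between the thick ascending limb and the proximal tubule was largest for Acsl1 (0.82 ± 0.15, adjusted p = 0.137), and 0 of 31 were called (edgeR; background 0.00656%), with 8 of 31 at an unadjusted p under 0.05 (9.35% of all genes). Without untreated library 1, 2 were called (Slc27a2 and Acsl1; 2.40% of all genes), and without untreated library 2, 1 (Acsl1; 1.15%). Proximal tubule markers were higher in the same libraries. Their median level in the thick ascending limb was 9.15% and 4.78% of the proximal tubule level in untreated and 11.8% and 11.2% in losartan libraries. Without the 10% of nuclei richest in those markers, 28, 29 and 26 of 31 genes read higher in the 3 classes. The median log2 changes were then 0.33, 0.33 and 0.21, against 0.28, 0.36 and 0.24 with all nuclei. The part of these markers in the result was not tested further.

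Intercalated cells, which secrete acid or base, held 2 called genes (2 of 31 by edgeR, background 0.676% of 10064 genes; the same 2 by DESeq2, background 1.31%), and 8 of 31 passed an unadjusted p of 0.05 (10.5% of all genes). Slc27a2 was at 226 and 138 against 492 and 473 CPM (1.41 ± 0.21, edgeR adjusted p = 0.0384), and Ppara at 102 and 65.0 against 217 and 224 CPM (1.41 ± 0.20, adjusted p = 0.0355). These levels were 14.9% and 13.4% of the proximal tubule's. Proximal tubule markers stood in this class at a median of 14.1% of their proximal tubule level. The median log2 change of those markers with losartan was 1.45 here. Proximal tubule markers made up 0.266% and 0.156% of intercalated-cell UMIs in untreated and 0.689% and 0.595% in losartan libraries. Without the 10% of nuclei richest in those markers, the changes were 0.74 and 0.70 and neither gene was called. Of all genes, 0.0833% were called under that setting, against 0.676% with all nuclei of the class. The part of these markers in the 2 calls was not tested further. Both calls were also lost without losartan library 1 (edgeR adjusted p 0.0688 and 0.0684). Without untreated library 1, 4 of 31 were called, Cd36 and Acaa1b being added, against 6.39% of all genes.

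In parietal epithelium, 1 of 20 tested genes was called (background 0.569% of 5804 genes): Acaa1b, at 28.9 and 23.0 against 103 and 98.4 CPM (1.98 ± 0.37, edgeR adjusted p = 0.0388). It rests on 79 UMIs, with 8 in the lowest library, and passed the filter on low counts only through the losartan libraries, so it is given as a description. Proximal tubule markers were at 0.332% and 0.238% of UMIs in untreated and 0.860% and 0.642% in losartan libraries, and the call was lost without the richest nuclei, with doublets kept, with DESeq2, and without any 1 of untreated library 1, untreated library 2 and losartan library 1. Its log2 change stayed between 1.78 and 2.09 on leaving out any 1 library. Without the richest nuclei it was not among the 16 genes tested. The share of all genes called was 0.019% without the richest nuclei, 0.413% with doublets kept and 0.431% with DESeq2. Without losartan library 2, 6 of 22 were called, against 3.59% of all genes. At an unadjusted p under 0.05, 7 of 20 passed (10.3% of all genes). In the other classes edgeR and DESeq2 called 0 of the genes tested, with the edgeR background in brackets: endothelium (background 0%), fibroblasts (0.0229%), macrophages and dendritic cells (0%, 28 tested), mural and mesangial nuclei (2.02%), podocytes (0.214%, 25 tested) and thin limb (0%, 29 tested). The DESeq2 backgrounds in the same order were 0.0872%, 0.703%, 0.102%, 1.44%, 0.122% and 0.0709%. At an unadjusted p under 0.05, 1, 4, 2, 8, 4 and 2 genes passed in the same order, against 5.03%, 8.53%, 8.13%, 16.9%, 7.71% and 3.1% of all genes. Without untreated library 1, edgeR called 2, 4, 4, 7, 3 and 2 genes in that order, against 2.10%, 4.67%, 13.1%, 9.38%, 3.12% and 3.52% of all genes. Mural and mesangial nuclei also gave 1 call without losartan library 1 (2.56% of all genes) and 3 without losartan library 2 (4.28%). Adipocytes, lymphocytes and urothelium had under 50 nuclei in a library and were not tested.

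Of the 71 other genes of fatty acid and ketone metabolism that were listed alongside, 66 were tested in the proximal tubule and edgeR called 0, with 36 higher and 30 lower. Nr1h4, a bile acid receptor, was at 684 and 745 against 1108 and 1026 CPM there (0.58 ± 0.11). Cyp4a14, a known target of Ppara, was at 224 and 212 against 25.2 and 88.2 CPM (-1.94 ± 0.54). Hacl1, Acsl5, Acsm1 and Cyp4a12a had log2 changes of -0.77, -0.49, 0.32 and 2.37, and none of these genes passed the test. Pdk4, which holds back glucose oxidation, was at 55.8 and 49.3 against 27.4 and 47.1 CPM. Outside the proximal tubule, edgeR calls among these genes included Acsm1 and Nr1h4, which rose in intercalated cells. In mural and mesangial nuclei they included Nr1h4, which rose, and Cyp4a14, which fell. Intercalated cells had 3 of 55 tested genes called higher (background 0.676%). Mural and mesangial nuclei had 2 of 56 called higher and 1 lower (background 2.02%). Parietal epithelium had 1 of 30 called higher (background 0.569%). Proximal tubule markers made up 0.618% and 0.39% of mural and mesangial UMIs in untreated and 1.03% and 1.13% in losartan libraries. As given above, these markers were also higher in losartan libraries in intercalated cells and parietal epithelium. The part of the markers in the calls of these classes was not tested.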

How the data were processed

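Raw UMI counts per gene and barcode were deposited by the authors, written by Cell Ranger 5.0.0 per the file headers; the submitters' processing notes name mm10 and Bowtie 0.12.2 without a role. Nuclei with at least 500 UMIs, 300 genes and at most 10% mitochondrial UMIs were kept. Doublets by Scrublet score (scanpy 1.11.5) were left out. Scrublet's automatic threshold was used in untreated library 1 only, where it marked 7.69% of barcodes. In the other libraries it marked at most 0.01%, so the highest scores were removed instead, at 0.8% per 1000 nuclei. Clusters or subclusters with high doublet scores were also left out of the classes, a choice made after seeing the data. They held 2723 nuclei, and the proximal tubule lost more nuclei to this in losartan libraries. With them kept, it held 2963 and 2123 nuclei in untreated and 5020 and 4112 in losartan libraries. Without them it held 2687 and 1973 against 3939 and 3390. Leiden clusters were named from marker lists without using the 31 genes; segments were named within each library. Counts summed per class and library were tested with edgeR 4.0.16 (TMM, filterByExpr, quasi-likelihood, Benjamini-Hochberg over all genes) for classes with at least 50 nuclei per library, and for injured proximal tubule; DESeq2 1.42.0 was an alternative. The standard error (SE) of an edgeR change was derived as the absolute log2 change divided by the square root of the test's F statistic. Class ratios used log2(CPM + 1) for genes with at least 100 UMIs. The tests were checked on simulated data. The genes and lists were chosen with earlier results of these data known. All 31 genes were named, and of the other pathway genes those called, the 6 smallest p in the proximal tubule (where fewer than 6 were called), and a few preset genes including Pdk4 and Cyp4a14; some genes that this rule names are not reported here. With 2 libraries per group, precision is limited.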

Additional observations from a re-analysis of the deposited data

How the results depend on the processing

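The count of the 31 genes called by edgeR moved with several settings. The share of all genes called under the same setting stands in brackets. In the whole kidney it was 9 with DESeq2 (8.91%) and 12 with the replicate block (12.3%). Without a filter on low counts it was 2 in connecting tubule and principal cells (1.03%), 1 in the distal convoluted tubule (0.695%), 1 in endothelium (0.941%), 2 in fibroblasts (3.11%), 3 in intercalated cells (2.75%), 3 in mural and mesangial nuclei (3.91%), 4 in parietal epithelium (1.15%), 5 in S2 (3.17%) and 4 in S3 (2.57%). With the replicate block it was 1 in the distal convoluted tubule (0.931%), 1 in endothelium (0.697%), 2 in fibroblasts (3.04%), 3 in mural and mesangial nuclei (8.24%), 4 in parietal epithelium (3.96%), 5 in the thick ascending limb (3.75%) and 2 in S2 (1.18%). DESeq2 gave 1 in S3 (0.738%) and 0 in parietal epithelium (0.431%). Parietal epithelium gave 0 with doublets kept (0.413%) and 2 at a mitochondrial limit of 2% (0.896%). Without the nuclei richest in proximal tubule UMIs it gave 0 (0.019%). That last setting gave 0 in intercalated cells (0.0833%) and 3 in mural and mesangial nuclei (5.75%). The replicate numbers do not pair samples by the labels; same-numbered libraries correlated at 0.35 in the whole kidney and 0.13 in the proximal tubule.

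Leaving out 1 library at a time gave 0 to 9 calls in the distal convoluted tubule, 0 to 8 in the thick ascending limb, 0 to 7 in mural and mesangial nuclei, 0 to 6 in parietal epithelium, 0 to 4 in intercalated cells, fibroblasts, and macrophages and dendritic cells, 0 to 3 in podocytes and S2, 0 to 2 in endothelium and thin limb, and 0 to 1 in connecting tubule and principal cells, the proximal tubule, S1 and S3. For the difference between proximal tubule and thick ascending limb it gave 0 to 2. The proximal tubule median ranged from 0.10 to 0.19. Of 682 pairs of gene result and alternative, 658 kept their direction. Acads in the proximal tubule changed sign, to 0.0013 with RLE factors and with DESeq2 and to 0.024 without a filter. On leaving out a library, the log2 change ranged from -0.24 to 0.51 for Acsl1 in the whole kidney and from -0.92 to 0.11 for Acaa1b in S1. In the proximal tubule it ranged from -0.28 to 0.034 for Ppara, -0.017 to 0.16 for Ppargc1a, -0.0897 to 0.18 for Crat, -0.059 to 0.053 for Acads, -0.076 to 0.34 for Etfb, -0.075 to 0.25 for Hadhb, -0.012 to 0.14 for Hadh, -0.13 to 0.052 for Acaa2, -0.017 to 0.27 for Eci1, -0.12 to 0.0203 for Decr1, -0.018 to 0.06 for Hsd17b4, -0.012 to 0.22 for Acaa1a and -0.16 to 0.23 for Pex11a. Clusters with high doublet scores kept, an alternative added after seeing the data, left 0 called in the 4 classes where it was run. The number of genes reading higher went from 23 to 20 in the proximal tubule and from 29 to 28 in both the thick ascending limb and the distal convoluted tubule, and stayed at 26 in connecting tubule and principal cells. The cause of these moves was not tested.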
